A study of Bassia scoparia with 27 samples.

Results

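A set of 76 kochia transcripts held their level at 3 h after fluroxypyr and were lower at 10 h in each of 3 lines. They were chosen from 45517 transcripts by their own values. On log2 of the normalized count plus 1, a transcript was kept when its 10 h mean lay more than 1 below the untreated mean in every line, its 3 h mean lay within 0.5 of the untreated mean in every line, and its untreated mean was at least 50 in every line. The fall alone held for 2077 transcripts, the fall and the floor for 1740, and all 3 criteria for 76, which come from 72 gene loci. None of the 76 is among the 212 transcripts named in the study's text. The sources used here pair none of the 76 identifiers with a gene name or a function, so each is given by its identifier and gene model.

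Flur-R is a field population selected over generations for survival of fluroxypyr. The line 9425 is inbred, susceptible to fluroxypyr and resistant to dicamba through a change in an IAA16 gene, and J01-S is a susceptible field population. Tissue that the labels call young leaf in one field and meristem in another was taken from plants sprayed with water. The plants were given fluroxypyr on the next day and sampled again 3 and 10 h later, times written here as hours after treatment (HAT). There were 3 untreated, 3 early and 4 late libraries of Flur-R and as many of 9425, and 2, 2 and 3 of J01-S. Tissue without herbicide was not collected alongside the treated samples, so the herbicide, the time of day and the repeated sampling cannot be told apart. Some plants were flowering, and neither they nor the RNA extraction batches are identified among the libraries.

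Fluroxypyr is a synthetic auxin. Auxins bring the TIR1/AFB receptors and the Aux/IAA repressors together, the repressors are degraded, and auxin response factors are freed to act on their targets. Aux/IAA, GH3 and ACC synthase genes are among the early targets, and genes of photosynthesis are commonly lowered later in plants treated with auxin herbicides. A transcript that is steady early and low later therefore has a time course different from that of the early auxin targets.

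The summed normalized counts reached 59.4 to 76.9 M in the 8 untreated libraries, 60 to 75.6 M in the 8 at 3 HAT and 50.9 to 61.3 M in the 11 at 10 HAT. A check of line identity at 10 HAT used 1423 transcripts on which 9425 and J01-S did not overlap at the earlier times and differed by over 3 (log2). The library labelled J01-S 10 HAT replicate 3 lay on the 9425 side for 96.1% of them, and the library labelled 9425 10 HAT replicate 3 for 39.3%. The Flur-R libraries at 10 HAT, a line not used to pick these transcripts, lay there for 40.97 to 63.95%. The other 9425 libraries at 10 HAT lay there for 93.5 to 98.0%, and J01-S replicates 2 and 4 for 29.6% and 6.32%. The choice of the 76 and every value below, unless stated, used the remaining 25 libraries.

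The 76 transcripts together made up 2.57 ± 0.167% of the normalized counts of an untreated Flur-R library (SD, n = 3). The share was 2.21 ± 0.132% (n = 3) 3 h and 0.820 ± 0.117% (n = 4) 10 h after treatment. In 9425 the shares were 2.40 ± 0.499%, 2.28 ± 0.0758% and 0.817 ± 0.0719% (n = 3 each), and in J01-S 2.57 ± 0.157%, 2.06 ± 0.0001% and 0.772 ± 0.0372% (n = 2 each). The ranges of the 3 lines overlapped at 10 HAT. The sums lean on the most abundant members, since Bs.00g247840.m01 alone held 1.11, 1.19 and 1.10% of the untreated Flur-R libraries. Bulk tissue does not tell fewer cells of a type from less RNA per cell. These values describe the choice itself, since the same libraries chose the transcripts.

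Over the 76, the change at 10 HAT had a median of -1.55 in Flur-R (log2, from -3.18 to -1.01), -1.51 in 9425 (from -3.44 to -1.01) and -1.66 in J01-S (from -4.32 to -1.01). Over all 28945 transcripts tested, the median change was 0.03, 0.03 and 0.05. At 3 HAT the medians over the 76 were -0.25, -0.13 and -0.22, against 0 over all tested, and 36 of the 76 lay slightly below untreated in all 3 lines while 4 lay above in all 3. The largest fall was in Flur-R for 25 transcripts, in 9425 for 19 and in J01-S for 32. Most falls were moderate, with 54 transcripts at 1 to 1.5 in their weakest line, 14 at 1.5 to 2 and 8 over 2.

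**Figure D1:**
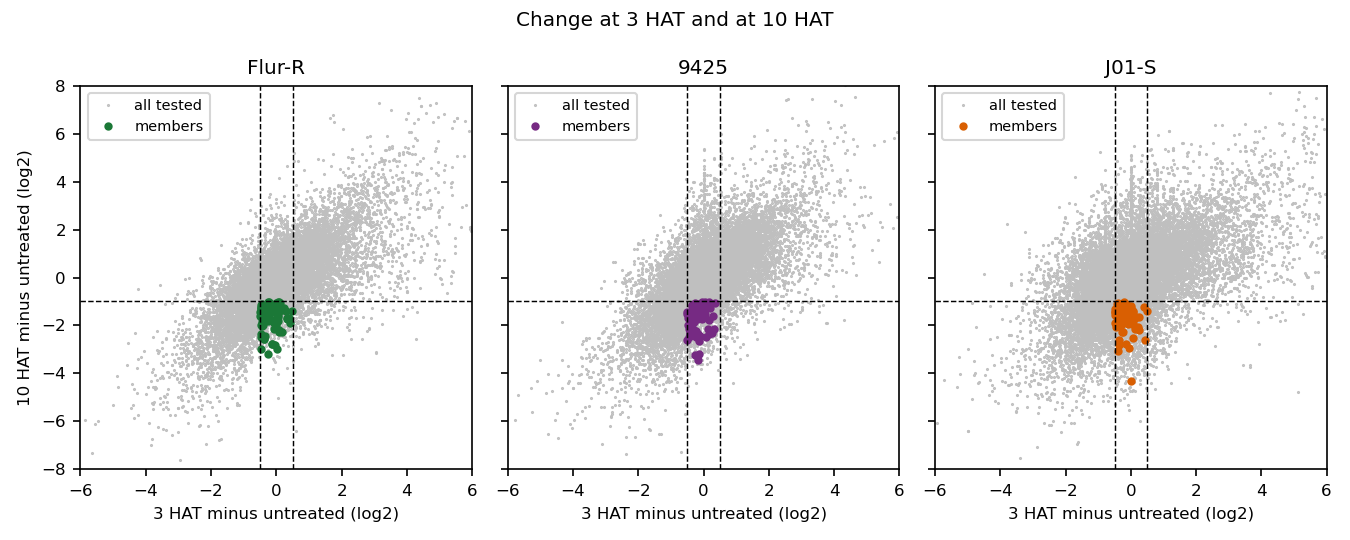
Change at 3 HAT (x axis, log2) against change at 10 HAT (y axis, log2) in each line, with all tested transcripts in grey and the 76 members in colour; the dashed lines are the thresholds of the choice and a few points lie outside the axes. The members fill the box below -1 and between -0.5 and 0.5 because the rule placed them there.

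Groups were tested with limma in 1 fit over the 9 groups, and a call needed an adjusted p (Benjamini-Hochberg) under 0.05 with a log2 change larger than 0.5. By these limits the fall at 10 HAT was called for 60 of the 76 in the resistant line, 62 in 9425 and 47 in J01-S. Of all transcripts tested, 11.1%, 11.0% and 7.77% were called lower in these comparisons. With each plant as a block, since plants were resampled, the counts were 72, 71 and 43, and 14.6%, 14.5% and 8.36% of all tested were called lower. With the J01-S groups fitted alone, limma called 0 of the 76 in that line and also 0 of all 28945 tested, where 58 of the 76 and 20.8% of all had an unadjusted p under 0.05. The 76 were chosen on the same contrast, so nothing is read from the difference. At 3 HAT the choice itself barred a call, because it kept only changes under 0.5, and 0 of the 76 called by limma is therefore no result. Of all tested, 9.63% were called either way in the resistant line, 8.07% in 9425 and 8.55% in J01-S. At an unadjusted p under 0.05 the counts were 7, 3 and 1 of the 76, where 21.4%, 20.4% and 20.9% of all tested were. Every 10 HAT library lay under every untreated library for 59 of the 76 in the resistant line, 70 in 9425 and 71 in J01-S, where 15.4%, 17.7% and 24.0% of all tested did so. Over the lines together, 47 of the 76 kept the 2 times fully apart, where 6.45% of all tested did.

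**Figure D2:**
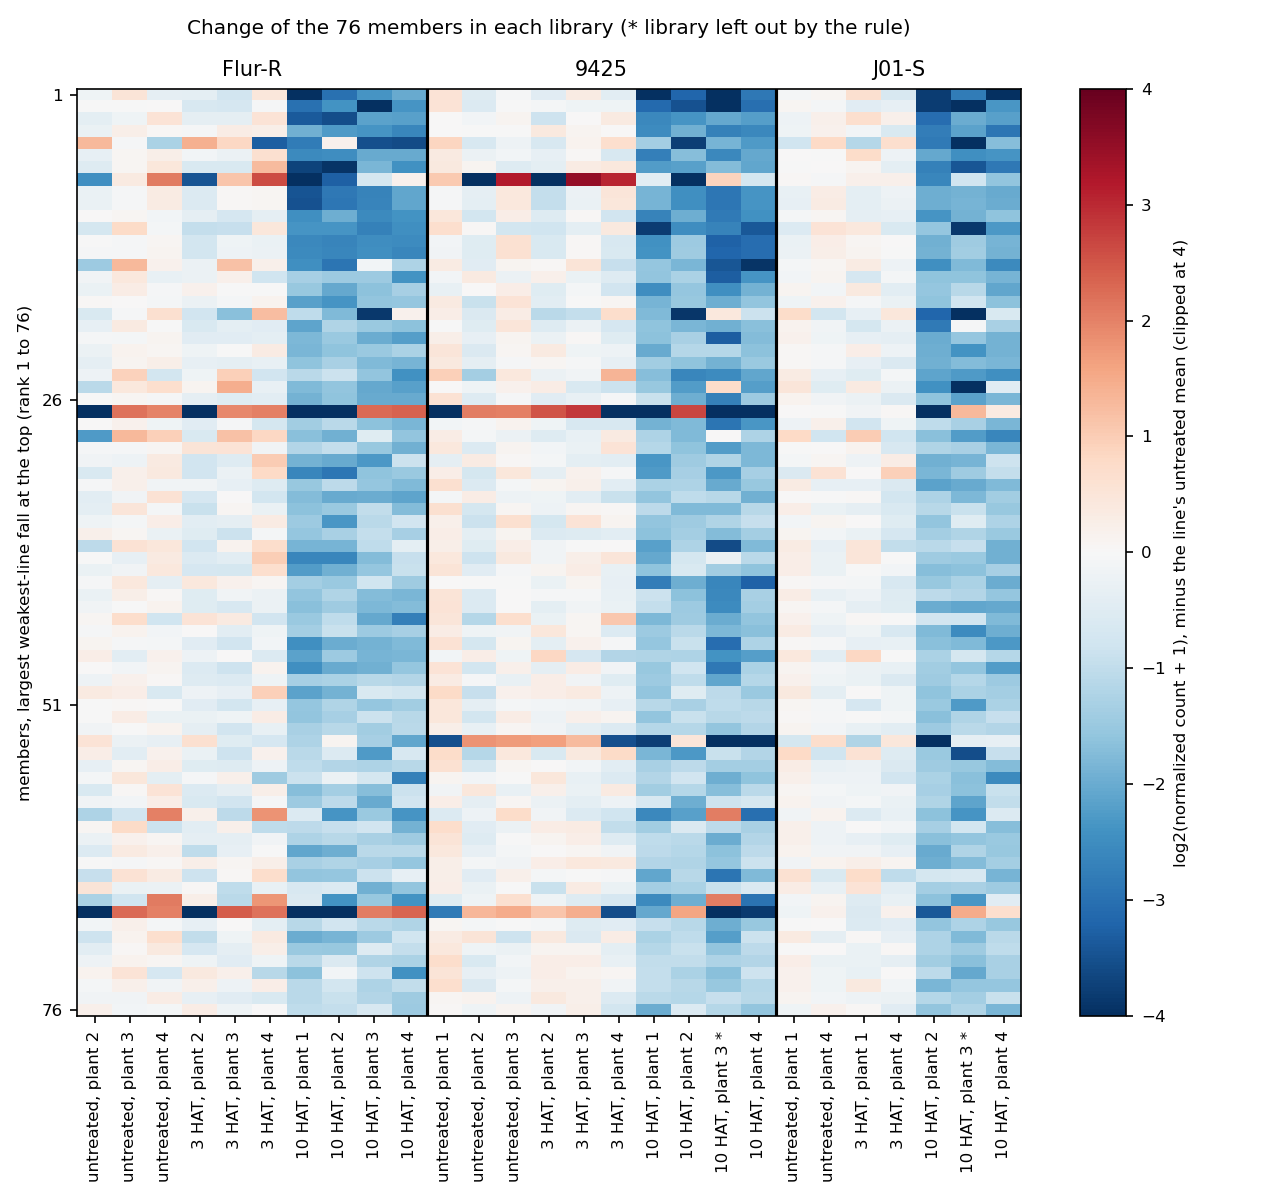
Colour shows each member's log2(normalized count + 1) in each of the 27 libraries minus the untreated mean of the line the library is labelled with, one row per transcript from rank 1 to rank 76, with the 2 left-out libraries starred. The 10 HAT columns are blue in nearly all rows, and a few rows alternate between dark blue and red within a single time point, following the plant.

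The 6 transcripts with the largest fall in their weakest line are shown first. Bs.00g114160.m01 (chromosome 4, 95293916 to 95297585, minus strand, 3 exons; coordinates here are those of assembly version 2) led the list. Its normalized counts in Flur-R were 403, 649 and 348 untreated, 340, 264 and 615 at 3 HAT and 10, 56, 87 and 110 at 10 HAT. In 9425 they were 1441, 703 and 974, then 728, 1261 and 745, then 50, 110 and 136, and in J01-S 545 and 600, then 896 and 366, then 40 and 19. Every 10 HAT value lay under every earlier value of its line, and the falls were -3.18, -3.44 and -4.32 (log2) in Flur-R, 9425 and J01-S.

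Bs.00g247840.m01 (chromosome 7, 7653941 to 7654744, plus strand), a single-exon gene model of 804 coding bases, was second. It was also the most abundant member per coding length in every line, at 1041748 normalized counts per 1000 coding bases in untreated Flur-R, 777923 for 9425 and 1041340 for J01-S. The 3 untreated Flur-R libraries were close to each other, at 836079, 834007 and 842610, and the values were 534233, 521703 and 802788 at 3 HAT and 105860, 161402, 42976 and 161631 at 10 HAT. In 9425 they were 866335, 413031 and 596984 untreated and 68866, 53457 and 74183 at 10 HAT, and in J01-S 890157 and 784318 untreated and 60312 and 167908 at 10 HAT. At 10 HAT 14.1%, 10.5% and 13.6% of the untreated mean was left in Flur-R, 9425 and J01-S. This transcript alone was 1.11, 1.19 and 1.10% of the counts of the untreated Flur-R libraries.

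Bs.00g140700.m01 (chromosome 1, 16265131 to 16267596, minus strand), also with 1 exon, had 1809, 2077 and 3447 in untreated Flur-R, 1826, 1847 and 3465 at 3 HAT and 230, 199, 536 and 521 at 10 HAT. In 9425 it went from 1763, 1629 and 1903 to 295, 340 and 385, and in J01-S from 1373 and 1811 to 191 and 349. The untreated and 10 HAT values did not overlap in any line, with falls of -2.80, -2.38 and -2.61. Plant 4 of Flur-R was the highest at both earlier times.

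Bs.00g105120.m01 (chromosome 4, 83195963 to 83197434, minus strand) was the most even of the 6 within groups. It had 2105, 2962 and 2589 in untreated Flur-R, 2442, 3112 and 2990 at 3 HAT and 666, 525, 487 and 411 at 10 HAT. In 9425 the untreated values were 3213, 3180 and 3186 and those at 10 HAT 552, 839 and 530, and in J01-S 2123 and 2751 against 352 and 328. At 3 HAT its mean was 0.16 above untreated in Flur-R, 0.17 above in 9425 and -0.36 in J01-S (log2).

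Bs.00g164570.m01 (chromosome 1, 69298927 to 69304094, plus strand) varied most between plants. In Flur-R it had 1074, 416 and 180 untreated, 1162, 771 and 43 at 3 HAT and 61, 490, 37 and 35 at 10 HAT. The value of 490 belongs to plant 2, which also had the highest value at the 2 earlier times, so untreated and 10 HAT values overlapped in this line. In 9425 it went from 707, 249 and 340 to 151, 28 and 80, and in J01-S, where its level was higher, from 2109 and 6303 to 511 and 1130.

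Bs.00g423920.m01 (chromosome 2, 1336114 to 1337894, minus strand) fell by nearly the same amount in each line. It had 2819, 3781 and 4209 in untreated Flur-R, 3262, 3022 and 5554 at 3 HAT and 602, 641, 885 and 883 at 10 HAT. In 9425 it went from 4543, 2997 and 3243 to 531, 1087 and 857, and in J01-S from 4026 and 3993 to 972 and 784. The falls were -2.26, -2.16 and -2.20, with no overlap of the times in any line.

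**Figure D3:**
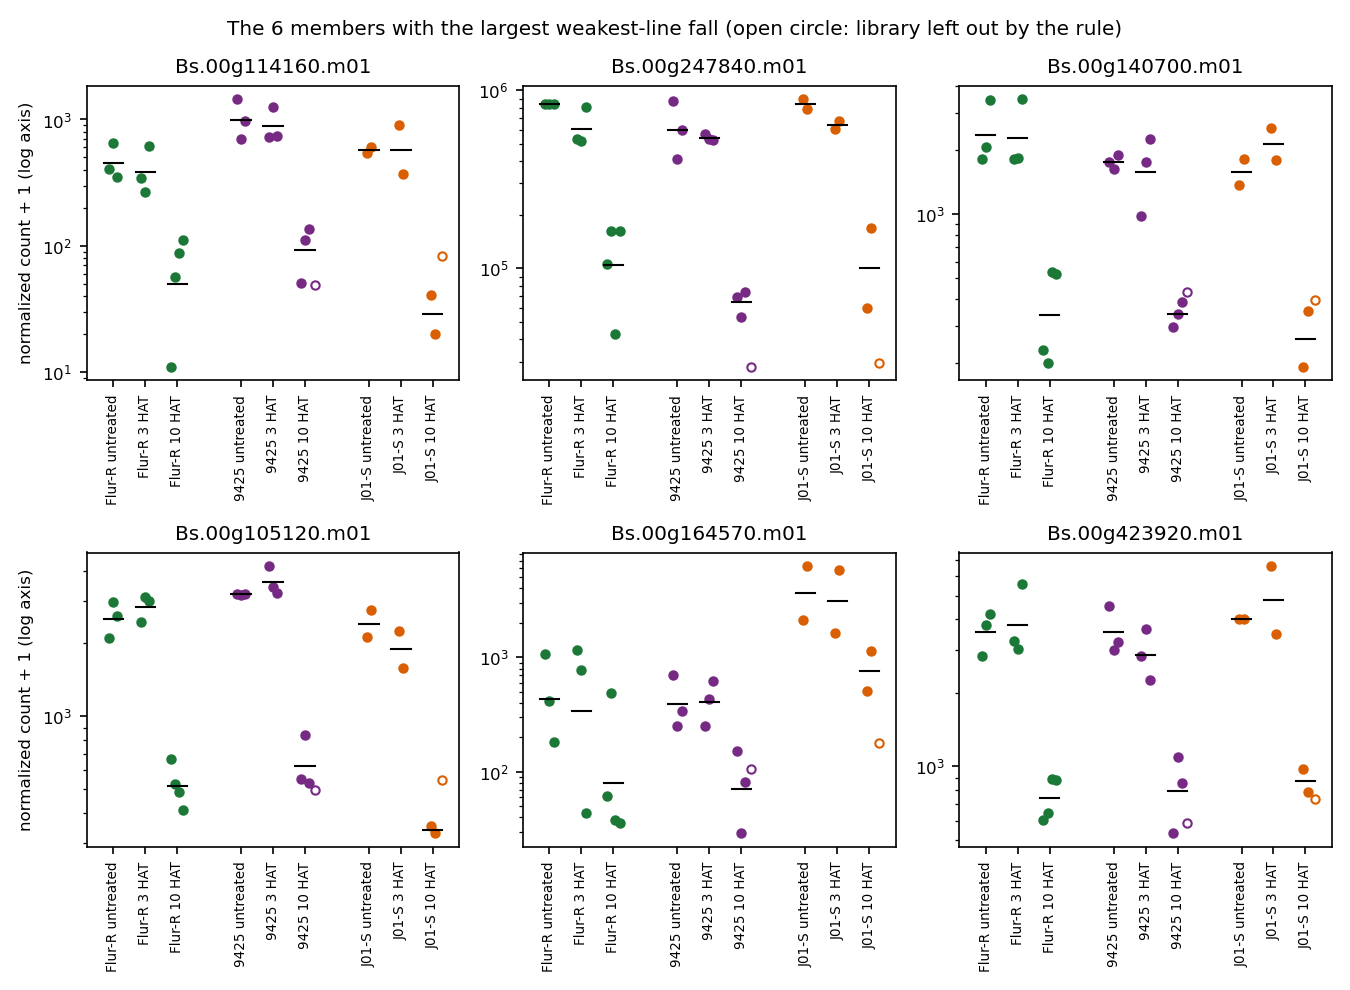
Normalized count plus 1 on a log axis for the 6 members with the largest weakest-line fall, in each line and time; filled circles are the libraries used, bars are the means of their log values and open circles are the 2 left-out libraries. In each panel the 10 HAT circles lie under the untreated ones, except for 1 Flur-R plant of Bs.00g164570.m01.

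By normalized count, the 3 highest members were Bs.00g247840.m01, Bs.00g129710.m01 and Bs.00g181280.m01. Bs.00g129710.m01 (chromosome 1, 3597550 to 3600237, plus strand, 5 exons) had 504405, 539062 and 495428 in untreated Flur-R, 403635, 366060 and 385187 at 3 HAT and 138586, 167631, 125542 and 125684 at 10 HAT. All 3 Flur-R plants were already lower at 3 HAT, by a mean of -0.41, which is inside the limit of the choice. Its falls at 10 HAT were -1.89, -1.43 and -1.73. Bs.00g181280.m01 (chromosome 1, 95940905 to 95946792, minus strand) went the other way first, with 78797, 78022 and 82666 in untreated Flur-R, 93208, 84348 and 93216 at 3 HAT and 32606, 34502, 31600 and 27435 at 10 HAT. In 9425 its means were 0.35 above untreated at 3 HAT and -1.08 at 10 HAT, and in J01-S 0.17 above and -1.66. Of the 76, 19 had an untreated mean over 10000 in every line and 22 had one under 1000 in every line.

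Of the 72 loci, 4 gave 2 members each, and the split of reads between isoforms of 1 locus is uncertain. The members of a pair had nearly the same falls. Bs.00g479800.m01 and Bs.00g479800.m02 (chromosome 6, 16 exons each) both changed by -2.77 in Flur-R and -2.23 in 9425, and by -1.98 in J01-S. For Bs.00g445170.m01 and Bs.00g445170.m02 (chromosome 2) the change was -2.56 in Flur-R for both, and for Bs.00g396100.m01 and Bs.00g396100.m02 (chromosome 5) it was -2.02 and -1.98. The pair of Bs.00g363000 (chromosome 5) was low and uneven, with 12, 17 and 123 for the .m01 transcript in untreated Flur-R and 20, 5, 10 and 5 at 10 HAT. The 4 pairs are therefore 4 observations rather than 8. Of 2 further loci, one isoform was a member and the other was not. Bs.00g424560.m01 missed through a change of -0.66 at 3 HAT in 9425, while Bs.00g424560.m02 had -0.43 there. Bs.00g387440.m02 missed through a change of -0.64 at 10 HAT in Flur-R.

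The falls of a member lay within 0.5 of each other across the 3 lines for 38 of the 76 and over 1 apart for 7. The most even were Bs.00g316040.m01 (chromosome 9), with -1.66, -1.73 and -1.73 in Flur-R, 9425 and J01-S, and Bs.00g241100.m01 (chromosome 7), with -1.12, -1.03 and -1.13. The least even were Bs.00g387440.m01, with -1.43, -2.48 and -2.93, and Bs.00g363000.m01, with -1.69, -2.59 and -1.09. The difference between lines in these falls was not tested. Just inside the threshold of -1 lay Bs.00g275230.m01, whose weakest fall was -1.0057 in Flur-R, Bs.00g057720.m01 with -1.007 in J01-S and Bs.00g371090.m01 with -1.0075 in Flur-R. Just outside it lay Bs.00g125400.m01 with -0.9998 in J01-S, Bs.00g128000.m01 with -0.9987 in Flur-R and Bs.00g298820.m01 with -0.9887 in 9425. The 3 h limit was as finely drawn, since Bs.00g255490.m01 was kept at -0.4999 and Bs.00g300970.m01 was left out at -0.5023, both in Flur-R.

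Because the same plants were sampled again, the change could also be read within 6 plants that had both an untreated and a 10 HAT library: plants 2, 3 and 4 of Flur-R, plants 1 and 2 of 9425 and plant 4 of J01-S. This reading was added after the data were seen and uses the same libraries as the choice. In each of the 6 plants, 72 to 75 of the 76 were lower at 10 HAT, where 12493 to 12965 of the 28945 tested were. Of the 76, 69 were lower in all 6, where 15.5% of all tested were. The median change within a plant ranged from -1.87 in plant 1 of 9425 to -1.08 in plant 2 of 9425. Within the 7 plants with an untreated and a 3 HAT library, 25 to 64 of the 76 were lower at 3 HAT. Of all tested, 12609 to 13747 were. At most 3 of the 76 fell by over 1 there, where 10.8 to 13.5% of all tested did. The choice limited the mean change at 3 HAT, so nothing is read from these counts.

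Of the 7 members that were not lower in all 6 plants, Bs.00g387440.m01 and Bs.00g383200.m01 were lower in 2 and 1 of them. They are described here because of these values, which were seen first. Bs.00g387440.m01 (chromosome 5, 54244615 to 54245308, minus strand, 216 coding bases) had 1, 0 and 0 in plant 2 of Flur-R untreated, at 3 HAT and at 10 HAT, 161, 134 and 171 in plant 3, and 142, 144 and 183 in plant 4. It was thus near 0 in some plants and over 100 in others at every time they were sampled. In 9425, plant 1 had 3 untreated and 0 at 10 HAT, plant 2 had 275, 380 and 426, and plant 4 had 0 at 3 HAT and 3 at 10 HAT. In J01-S, plant 4 had 148, 155 and 193, while plant 2, sampled at 10 HAT only, had 1. In the plants where it was over 100 and that were sampled at both times, it was higher at 10 HAT. Plants near 0 were 1 of 3 untreated and 2 of 4 at 10 HAT in Flur-R, 1 of 3 and 2 of 3 in 9425, and 0 of 2 and 1 of 2 in J01-S. The other isoform, Bs.00g387440.m02, split the same plants.

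Bs.00g383200.m01 (chromosome 5, 43564432 to 43564680, plus strand), a single-exon model of 249 coding bases, also followed the plant. In Flur-R it had 0, 0 and 0 in plant 2, 92, 103 and 79 in plant 3, 78, 86 and 97 in plant 4 and 0 in plant 1, sampled at 10 HAT only. In 9425, plants 1 and 4 had 4 to 16 at each time sampled and plants 2 and 3 had 150 to 207. In J01-S it was 65 and 48 in plant 1, 81, 81 and 115 in plant 4 and 6 in plant 2. Bs.00g031670.m01 (chromosome 8, 56438589 to 56439985) split the 9425 plants in the same way, with 34 and 28 in plant 1, 34 and 24 in plant 4, 1368, 1221 and 558 in plant 2 and 1296 and 947 in plant 3. In J01-S it had 22 in plant 2, sampled at 10 HAT only, 424 and 300 in plant 1 and 1118, 945 and 549 in plant 4. The fall of -2.62 in J01-S was thus -1.02 within plant 4, the 1 plant of that line with both times. Its values in Flur-R showed no such split, at 1133, 655 and 608 untreated and 327, 820, 305 and 182 at 10 HAT. Within 9425, Bs.00g031670.m01 changed by -0.27 in plant 1 and by -1.29 in plant 2 at 10 HAT. Neither Bs.00g387440.m01 nor Bs.00g383200.m01 nor Bs.00g031670.m01 met the rule on changes within plants. A plant near 0 was also seen for Bs.00g536040.m01, which had 2, 0 and 0 in plant 2 of 9425.

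**Figure D4:**
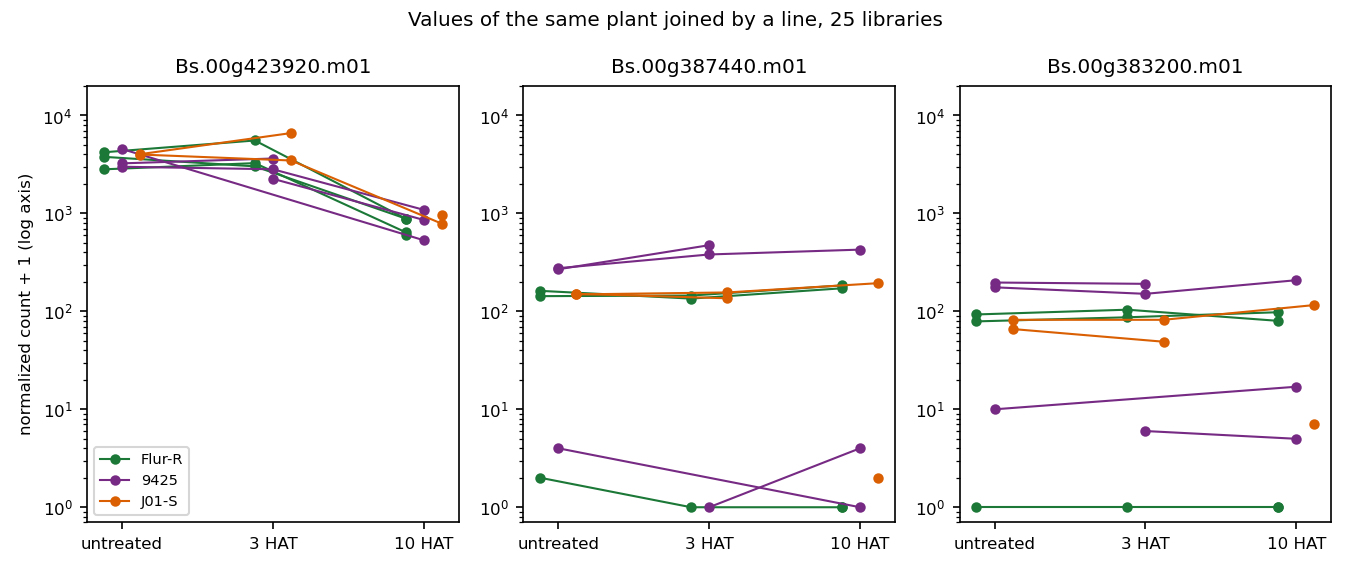
Normalized count plus 1 on a log axis at each time for 3 members over the 25 libraries used, with values of the same plant joined by a line and the lines of kochia in colour. Bs.00g423920.m01 is lower at 10 HAT in every plant with a line to that time, whereas Bs.00g387440.m01 and Bs.00g383200.m01 hold much the same level in a plant at each time sampled, from 0 to 16 in some plants and from 48 up in the others.

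The 2 libraries left out of the choice gave 10 HAT values that did not choose the transcripts. The untreated values they are set against did choose them, so these differences are only partly independent of the rule. Their line is in doubt, but each is labelled 10 HAT, so each was set against all untreated libraries as well as those of its labelled line. The library labelled 9425 10 HAT replicate 3 lay under every untreated library of the 3 lines for 65 of the 76, where 21.1% of all tested did so. The library labelled J01-S 10 HAT replicate 3 did so for 64 of the 76, where 16.9% of all tested did. Against the untreated mean of the labelled line, the first was over 1 lower (log2) for 65 of the 76 and the second for 63, where 24.5% and 22.7% of all tested were. The medians over the 76 were -1.95 and -1.61, beside 0 and 0.02 over all tested. Set against the untreated mean of 9425, the side on which its line check put it, the library labelled J01-S was over 1 lower for 69 of the 76, where 16.0% of all tested were. With 1 library each, these differences have no replicate check and no test.

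Among the 6 leading transcripts, the libraries labelled 9425 and J01-S 10 HAT replicate 3 had 48 and 82 for Bs.00g114160.m01, 27980 and 29281 for Bs.00g247840.m01, and 429 and 395 for Bs.00g140700.m01. They had 494 and 547 for Bs.00g105120.m01, 106 and 178 for Bs.00g164570.m01, and 585 and 738 for Bs.00g423920.m01. All of these lay under every untreated library of every line, and for Bs.00g247840.m01 they were the 2 lowest of all 27 values. In the library labelled 9425, 6 of the 76 were not below the untreated mean of 9425, and in the library labelled J01-S 2 were not below that of J01-S. In the former Bs.00g363000.m01 stood at 296 and Bs.00g363000.m02 at 289, a log2 change of 2.04 for each, while the other 9425 libraries at 10 HAT had 11, 15 and 8 for the .m01 transcript. The other 4 were Bs.00g536040.m01 with a change of 0.88, Bs.00g304500.m01 with 0.72, Bs.00g424560.m02 with 0.41 and Bs.00g426020.m01 with 0.02. The 2 in the library labelled J01-S were Bs.00g383200.m01 at 205 and Bs.00g387440.m01 at 371, while the library labelled 9425 had 1 and 2. Plant 3 of 9425, whose number that library bears, had 196 and 268 for these when untreated.

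**Figure D5:**
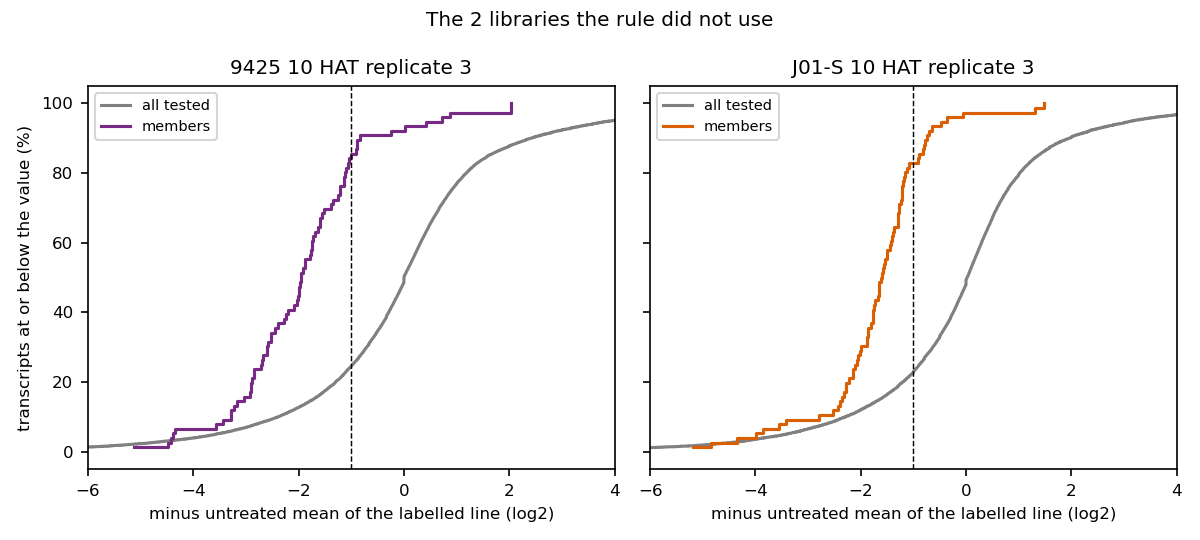
Cumulative share of transcripts (y axis, %) at or below each log2 difference from the untreated mean of the labelled line (x axis, -6 to 4), for the 76 members in colour and all tested in grey, in each library the rule did not use. The member curves lie to the left, with 65 and 63 of the 76 at or beyond the dashed line at -1 and medians of -1.95 and -1.61.

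The levels of the 76 were then compared between the resistant line and each susceptible line. The choice set no limit on the difference between lines, but it required the untreated floor and the fall after treatment in every line. A transcript under the floor in any line was thus barred from the 76 but could stay among all tested. The shares of all tested are therefore not matched to the 76 in these comparisons, and nothing is read from the gap. None of the 76 passed the test before treatment. In untreated plants limma called 0 of the 76 between Flur-R and 9425, where 5.30% of all tested were called, and 0 between Flur-R and J01-S, where 3.07% were. At an unadjusted p under 0.05 the counts were 8 of the 76 in each comparison, against 18.3% and 13.6% of all tested. The median log2 difference over the 76 was -0.13 from 9425 and -0.17 from J01-S, beside -0.01 over all tested in each.

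At 10 HAT, 4 of the 76 were called lower in Flur-R than in 9425 and none higher, where 2.72% of all tested were called lower and 4.30% higher. Between Flur-R and J01-S, 1 was called lower, and none higher, where 2.02% of all tested were called lower and 1.88% higher. As shares of the 76 these are 5.26% and 1.32%, and the 4 include both isoforms of 1 locus. The comparisons share the Flur-R libraries.

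Bs.00g361180.m01 (chromosome 5, 6965675 to 6970949, minus strand) had 725, 917, 648 and 550 in Flur-R at 10 HAT and 1190, 1500 and 1104 in 9425, with no overlap. Its log2 difference was -0.84 ± 0.17 (SE; limma, adjusted p = 0.00403). Before treatment it stood at 2477, 2430 and 2735 in Flur-R and at 4311, 2906 and 3993 in 9425, a difference of -0.53 ± 0.19 that was not called (adjusted p = 0.112). Bs.00g169460.m01 (chromosome 1, 78848665 to 78861683, plus strand) had 343, 441, 307 and 289 in Flur-R and 896, 523 and 665 in 9425, a difference of -0.99 ± 0.24 (limma, adjusted p = 0.0160). Without 9425 replicate 1 it was -0.79 and was not called (adjusted p = 0.114). Before treatment Bs.00g169460.m01 differed by -0.67 ± 0.26, which was not called (limma, adjusted p = 0.164). From J01-S at 10 HAT, Bs.00g361180.m01 and Bs.00g169460.m01 differed by -0.42 and -0.33, neither called (limma, adjusted p = 0.288 and 0.607). For both transcripts the library labelled 9425 replicate 3, which was left out, had lower values, 378 and 272, and with all 27 libraries as labelled neither was called (adjusted p = 0.458 and 0.193).

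The other members called between these lines were the 2 isoforms of Bs.00g445170 (chromosome 2, 28427030 to 28431126 for the .m01 transcript). Bs.00g445170.m01 had 143, 139, 153 and 138 in Flur-R and 278, 548 and 176 in 9425, a difference of -1.06 ± 0.30 (limma, adjusted p = 0.0374). The Flur-R plants were close together and the 9425 plants were not, and without 9425 replicate 2 the difference was -0.62 (adjusted p = 0.225). Its call was also lost without 9425 replicate 1 (adjusted p = 0.0878), without Flur-R replicate 1, 2 or 4 (0.0861, 0.0898 and 0.0549) and with libraries rescaled to equal totals (0.0592). That is 5 of the 7 libraries compared, and 4 of the 7 for the .m02 transcript. Before treatment the .m01 transcript already differed from 9425 by -0.80 ± 0.32, which was not called (limma, adjusted p = 0.182). From J01-S at 10 HAT it differed by -0.43, also not called (limma, adjusted p = 0.581). Bs.00g319910.m01 (chromosome 9, 29296552 to 29301608, minus strand) had 13, 13, 10 and 12 in Flur-R and 73 and 43 in J01-S, a difference of -2.14 ± 0.57 (limma, adjusted p = 0.0384). Before treatment it had 43, 122 and 67 in Flur-R and 146 and 317 in J01-S, which also did not overlap but were not called (adjusted p = 0.213). In 9425 it had 5, 14 and 7 at 10 HAT. Flur-R lay 0.53 ± 0.50 above 9425 there, which was not called (limma, adjusted p = 0.602). Its call against J01-S was lost without any 1 of the 6 libraries compared (adjusted p = 0.0552 to 0.224). With plant number as a block across lines, which pairs different plants, it was lost too (-2.09, limma, adjusted p = 0.0585). With all 27 libraries as labelled it was again lost (adjusted p = 0.171), as were all 4 against 9425. In that fit 2.23% of all tested were called against J01-S and 4.43% against 9425, and 9 and 16 of the 76 had an unadjusted p under 0.05, where 16.2% and 19.0% of all did. In fits with only the groups compared, no member was called in either comparison, where 5.15% of all tested were called against 9425 and 2.13% against J01-S. An unadjusted p under 0.05 was reached there by 15 of the 76 in each, where 22.7% and 15.1% of all did.

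The gene models of the 76 had a median of 4.5 exons and 1024.5 coding bases, beside 5 and 924 over all tested transcripts and 6 and 1101 over the 17980 tested with an untreated mean at the floor or above. Single-exon models were 10 of the 76 (13.2%), beside 11.7% and 8.89%. They include Bs.00g247840.m01 and Bs.00g140700.m01 of the 6 leading transcripts, and a difference from these shares was not tested. The loci were spread over all 9 chromosomes, from 3 on chromosome 3 to 14 on chromosome 5, which held 19.4% of the 72 loci and 12.3% of the tested loci. No 2 member loci were next to each other in gene order. The closest, Bs.00g114140.m01 and Bs.00g114160.m01 on chromosome 4, lie 21059 bases apart with another locus between them, and had falls of -1.40 and -3.18 in Flur-R.

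For the time course of known genes, transcripts that the study's tables describe were set beside the 76. The list was drawn with their published behaviour in view and supports nothing about the 76. Of 8 transcripts of light harvesting and electron transport, all 8 were called lower at 10 HAT in each line, and 6, 4 and 4 were already called lower at 3 HAT (Flur-R, 9425 and J01-S in this order). Bs.00g240870.m01, which encodes a chlorophyll a/b binding protein that holds antenna pigments, changed by -1.76, -1.36 and -1.82 at 3 HAT and by -6.80, -6.55 and -6.07 at 10 HAT. Of 8 transcripts of plastid metabolism, all 8 were called lower at 10 HAT and 6 at 3 HAT in each line. Bs.00g192330.m01, for subunit H of magnesium chelatase, an enzyme of chlorophyll synthesis, changed by -1.81, -1.36 and -1.97 at 3 HAT. All 16 changed by at least 0.5 at 3 HAT in at least 1 line, so none has the time course of the 76. The nearest was Bs.00g338570.m01, a photosystem II subunit, with -0.66, -0.40 and -0.10 at 3 HAT and -1.58, -0.91 and -1.31 at 10 HAT.

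Of 5 auxin response transcripts, all 5 were called higher at both times in each line. Bs.00g477580.m01, for GH3.2, a member of the family that joins auxin to amino acids, rose by 7.33, 7.83 and 6.82 at 3 HAT in the same order of lines. The untreated level of the chlorophyll a/b binding transcript, taken as a leaf marker, was 389614, 419016 and 407873 in that order. No marker of meristem is annotated in the sources used here and no other tissue was sequenced, so the level does not tell leaf from meristem.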

How the data were processed

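The authors mapped paired reads with HISAT2 to coding sequences of the kochia assembly (version 2), assigned them to transcripts and scaled the counts with DESeq. What was deposited is a score, these normalized counts rounded to whole numbers. Read counts could not be recovered from it, so no count model was run, and the study's own read totals for each library are not used here. Nothing says that strand was used in counting. Levels are normalized counts ± SD, and differences are on log2 of the normalized count plus 1.

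Transcripts with at least 10 in at least 2 of 25 libraries were tested with limma 3.58.1 (R 4.3.3, variance trend, 9 groups, Benjamini-Hochberg within each comparison). Tested on simulated data, the procedure recovered 36% of 2-fold and 70% of 4-fold changes for Flur-R against 9425 at 10 HAT, and 22% and 67% against J01-S. The simulation changed only a small part of the transcripts, all above a set level, and gave plants no effect of their own. These rates therefore need not hold for the data here. Replicates are plants. The same plants were resampled. Deviations from group means correlated with a median of 0.725, 0.508 and 0.608 between libraries of the same plant of Flur-R, 9425 and J01-S. Between other plants the medians were -0.275, -0.242 and -0.449. Subtracting the means of groups of 2 to 4 libraries by itself pushes these below 0, so nothing is read from the contrast.

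Members, lists and thresholds were chosen with earlier results of these data known. Named transcripts are the 6 with the largest weakest-line fall, the 3 highest, isoform pairs, the 3 nearest the threshold on each side, the 2 most significant per line comparison and direction, and the 2 most and least even between lines; others were chosen after their values were seen. Alternatives were another value added to the counts, other filters, equal totals, quantile normalization, all 27 libraries, only the groups compared, the plant as a block and each library left out. Paired plants were added later.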

Additional observations from a re-analysis of the deposited data

Results flagged for a closer look

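In the group with 4 libraries, Flur-R at 10 HAT, the mean level of the 76 members and 25 named members were checked for a library far from the others, 26 values in all. By Dixon's criterion, 2 stood apart, and chance alone gives about 1 in 20. Bs.00g164570.m01 had 490 in replicate 2, beside 35, 37 and 61 in the other libraries, and plant 2 was also the highest Flur-R plant before treatment and at 3 HAT. Bs.00g316040.m01 had 209 in replicate 4, beside 405, 407 and 436.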

How the results depend on the processing

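Which transcripts met the rule depended on the scaling and on single libraries. Of the 76, 31 were chosen again after rescaling to equal totals, 45 after quantile normalization, 51 on paired plants and 45 to 74 when single libraries were left out, fewest without 9425 untreated replicate 1 (45), Flur-R 3 HAT replicate 4 (48) and J01-S untreated replicate 4 (50). Equal totals raised the median change of all tested at 10 HAT from 0.03, 0.03 and 0.05 to 0.45, 0.28 and 0.40 in Flur-R, 9425 and J01-S, and the share of calls that were higher from 42.6%, 47.3% and 42.2% to 77.2%, 68.6% and 74.4%. The median over the 76 was then -1.12, -1.25 and -1.30. Members called at 10 HAT in J01-S went from 47 to 0 with only the groups compared, a fit that called 0 of all 28945 tested. Single libraries left out gave 55 to 62 in Flur-R, 49 to 62 in 9425 and 37 to 42 in J01-S. Shares of all tested are not given for fits with a library left out, here and below, so nothing is read from those counts.

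At 3 HAT quantile normalization called 2 members in Flur-R and 1 in J01-S, where 9.55% and 8.82% of all tested were called. Leaving out libraries called 0 to 1 in Flur-R. Between Flur-R and 9425 at 10 HAT the 4 calls became 0 with all 27 libraries or only the groups compared and 1 to 6 with a library left out, and untreated 0 to 1. Against J01-S at 10 HAT the 1 call became 0 with 8 added, with no filter, with all 27 libraries, with only the groups compared, and 0 to 1 with a library left out. With 8 added 4.31% of all tested were called there, and with no filter 2.91%. With plant number as a replicate block across lines, which pairs different plants, members called were 9 and 3 at 10 HAT and 1 and 1 untreated, against 9425 and J01-S, or 11.8%, 3.95%, 1.32% and 1.32% of the 76, where 12.1%, 5.63%, 6.78% and 3.19% of all tested were called. The call of Bs.00g319910.m01 against J01-S was not among the 3. With a replicate block for each plant of a line, Bs.00g387440.m01 changed sign at 10 HAT, to 0.015 in 9425 and 0.33 in J01-S, and leaving out single libraries gave -6.23 to 0.37 in J01-S, the last without 10 HAT replicate 2. Of 1232 values of named transcripts at 10 HAT under the alternatives, 1151 kept direction and call, 61 lost the call, 17 gained it and the 3 above changed sign. Of 79 such values of the line differences called, 48 kept the call and 31 lost it.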
